A study of Mus musculus with 6 samples.

Results

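The 10 genes described here encode the MHC class I pathway of mouse liver: the heavy chains H2-K1 and H2-D1, the light chain B2m, the peptide transporter Tap1 and Tap2, the loading factor Tapbp, the immunoproteasome subunits Psmb8, Psmb9 and Psmb10, and the transactivator Nlrc5. They were found by gene symbol in a table of 17975 genes, and all 10 passed the filter on low counts that left 13805 genes to test. RNA was sequenced from whole liver of 3 Hom and 3 WT mice. Hom mice carried homozygous floxed NEK7 together with Alb-Cre, a transgene driven by the albumin promoter that the study used to delete NEK7 in hepatocytes. The Hom mice served to ask what the loss of NEK7 in hepatocytes changes in the liver. The study's breeding scheme gives WT mice as either floxed without Cre or Alb-Cre alone, on a C57BL/6 background, and which of these each WT liver was is not given in the sources used here. The study states a young adult age range for its mice as a whole, but it also describes liver fibrosis and inflammation in older Hom mice. It used both sexes in its knock-out experiments. The age and sex of each of these 6 mice were not used here.

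MHC class I molecules carry short peptides from proteins made inside the cell to its surface, where CD8+ T cells inspect them. The proteasome cuts the proteins, and under interferon gamma it can exchange its 3 catalytic subunits Psmb6, Psmb5 and Psmb7 for Psmb9, Psmb8 and Psmb10, which gives the immunoproteasome. The TAP transporter moves the peptides into the endoplasmic reticulum, tapasin holds it beside an empty heavy chain paired with B2m, and NLRC5 acts in the nucleus on the promoters of many of these genes. Hepatocytes express little class I in the resting state compared with leukocytes and endothelium, so that whole liver RNA mixes cells with unlike levels, and in bulk tissue fewer cells of a type cannot be told apart from less RNA per cell.

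The start regions of these genes show which of them are built alike. RefSeq windows on GRCm38.p6, from 250 bases before to 50 bases after the start site, were matched for 8 of the 10 genes; Tap2 and Nlrc5 had no window. The submitters' notes name mm9 for the deposited values, so these positions belong to RefSeq and not to the table. Heavy chain stretches are shown first, because H2-K1 and H2-D1 hold the same kappaB motif (GGGATTNCC) and beside it the same relaxed pair of interferon regulatory factor half-sites (GAANNGAAA, here on the opposite strand), both in capitals; the relaxed pair was searched for after the windows had been read. They were cut at the same distance around the motif and had 104 of 109 bases in common (95.4%).
H2-K1, chr17:34000399-34000507, minus strand: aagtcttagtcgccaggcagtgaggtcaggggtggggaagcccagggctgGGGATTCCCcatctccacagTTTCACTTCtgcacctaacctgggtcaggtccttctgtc
H2-D1, chr17:35262874-35262982, plus strand: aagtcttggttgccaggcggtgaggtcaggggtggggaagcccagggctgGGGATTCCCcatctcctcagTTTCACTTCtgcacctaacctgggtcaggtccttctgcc
B2m, chr2:122147508-122147647, plus strand: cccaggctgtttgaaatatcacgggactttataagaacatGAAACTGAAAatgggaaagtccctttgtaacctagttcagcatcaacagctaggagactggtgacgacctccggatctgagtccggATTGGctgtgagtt
Tap1, chr17:34187331-34187555, plus strand: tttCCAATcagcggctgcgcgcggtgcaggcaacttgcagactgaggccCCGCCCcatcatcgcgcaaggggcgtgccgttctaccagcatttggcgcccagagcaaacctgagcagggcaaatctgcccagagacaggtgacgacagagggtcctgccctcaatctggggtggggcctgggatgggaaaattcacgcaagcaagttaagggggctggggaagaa
Psmb8, chr17:34198068-34198136, plus strand: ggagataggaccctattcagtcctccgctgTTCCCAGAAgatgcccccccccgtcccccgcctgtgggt

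The B2m stretch is shown for its full interferon regulatory factor pair (GAAANNGAAA) and, further on, a CCAAT box in the opposite strand's letters, both in capitals. Psmb8 is shown for a GAS motif (TTCNNNGAA), an element named for interferon gamma activation. The Tap1 stretch is the whole space between the start sites of Tap1 and Psmb9, which lie back to back 226 bases apart and are transcribed away from each other; capitals mark its CCAAT box and its GC box (GGGCGG, on the opposite strand). Searched on both strands of all 32851 RefSeq windows, the kappaB motif was present in 0.938%, the full interferon regulatory factor pair in 3.44%, the relaxed pair in 7.52% and GAS in 8.30%, while CCAAT was in 37.4% and the GC box in 35.7%. Of the 8 matched genes, 2 held kappaB, 1 the full pair, 2 the relaxed pair, 1 GAS, 6 CCAAT and 3 the GC box. No window of the 8 genes held both the full and the relaxed pair. These are matches of letters only.

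In the Hom livers some genes of peptide cutting, transport and loading rose, and the class I chains themselves did not pass the test. Levels below are CPM, the estimated reads of a gene scaled to a common library total, after TMM factors that correct for composition, and differences are log2 fold changes of Hom over WT from edgeR with an adjusted p over all 13805 genes. Tap2, Tapbp, Psmb8 and Psmb10 were higher at an adjusted p under 0.05, that is 4 of the 10 genes against 21.5% of all genes tested, and 0 were lower against 20.1%. The remaining 6 did not pass. In 7 of 10 all 3 Hom livers lay above all 3 WT livers, which held for 28.7% of all genes tested, and in 0 of 10 did all Hom livers lie below, against 27.0%. The 10 genes had a median of 0.67 on the log2 scale, beside −0.0018 over all genes tested.

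**Figure D1:**
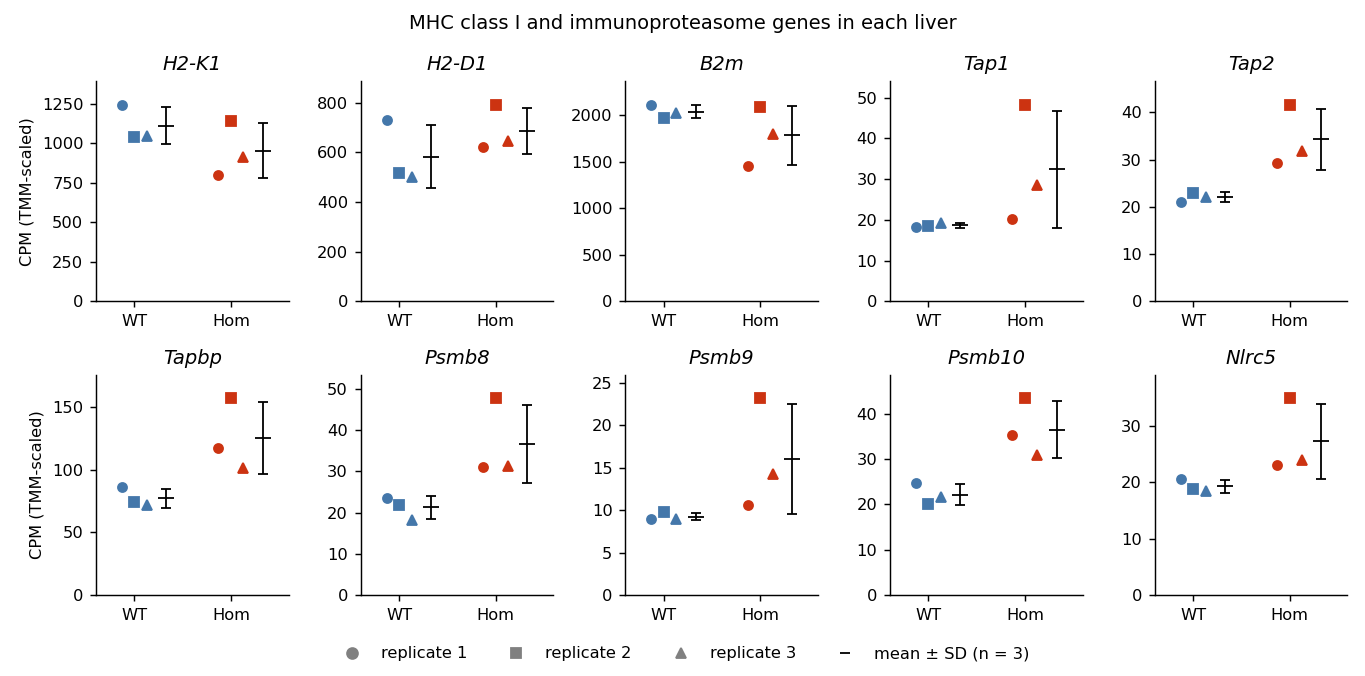
CPM after TMM scaling (vertical axis, from 0) of the 10 genes in 3 WT livers (blue) and 3 Hom livers (red), with a marker shape per replicate and the mean ± SD in black. The Hom livers lie above the WT livers for Tap1, Tap2, Tapbp, Psmb8, Psmb9, Psmb10 and Nlrc5 and overlap them for H2-K1, H2-D1 and B2m, and the square of Hom replicate 2 is the highest of the Hom livers in all 10 panels.

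Psmb10, which gives the immunoproteasome its trypsin-like site, was at 24.7, 20.1 and 21.5 CPM in WT replicates 1, 2 and 3 and at 35.2, 43.3 and 30.8 CPM in Hom replicates 1, 2 and 3. The groups did not overlap, and the log2 fold change was 0.72 (SE 0.14, adjusted p = 0.00839). Psmb8, the inducible chymotrypsin-like subunit, was at 23.6, 21.9 and 18.1 CPM in the WT livers and at 31.0, 47.6 and 31.2 CPM in the Hom livers. All Hom livers were above all WT livers, with a log2 fold change of 0.79 (SE 0.19, adjusted p = 0.0177). Without WT replicate 2 or 3 the adjusted p of Psmb8 was 0.0558 and 0.0553. Psmb9, the inducible partner of Psmb6, was at 8.99, 9.75 and 8.97 CPM in the WT livers and at 10.6, 23.1 and 14.2 CPM in the Hom livers. The WT livers were within 1 CPM of each other and the Hom livers were spread, and the log2 fold change of 0.79 (SE 0.27) had an adjusted p of 0.0538. It was 1.02 without Hom replicate 1 (adjusted p = 0.0154) and 0.43 without Hom replicate 2 (adjusted p = 0.113).

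Tap1 and Tap2 encode the chains of the TAP transporter, which works as a dimer of both. Tap2 was at 21.1, 23.03 and 22.2 CPM in the WT livers and at 29.3, 41.6 and 31.9 CPM in the Hom livers, a log2 fold change of 0.63 (SE 0.14, adjusted p = 0.0116). Tap1 was at 18.3, 18.4 and 19.4 CPM in the WT livers and at 20.2, 48.3 and 28.7 CPM in the Hom livers. Hom replicate 1 was barely above the WT livers and Hom replicate 2 far above them. Its log2 fold change of 0.79 (SE 0.29) had an adjusted p of 0.0652, which was 0.0141 without Hom replicate 1 and 0.132 without Hom replicate 2. Psmb9 and Tap1, which share the stretch between their start sites printed above, had the same log2 fold change to 2 decimals. So did Psmb8 (0.79), and the order of the Hom livers was not particular to the pair either. Hom replicate 2 was the highest of the Hom livers in 10 of the 10 genes, and Hom replicate 1 the lowest in 8. In RefSeq's order of protein-coding genes on chromosome 17, Psmb9, Tap1, Psmb8 and Tap2 are direct neighbours.

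Tapbp encodes tapasin, the bridge from the transporter to the empty class I molecule. It was at 86.0, 74.1 and 71.6 CPM in the WT livers and at 117, 157 and 101 CPM in the Hom livers. The groups did not overlap, and the log2 fold change was 0.70 (SE 0.17, adjusted p = 0.0167). The adjusted p was 0.0641 without WT replicate 2 and 0.0564 without WT replicate 3.

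Nlrc5, the class I transactivator, was at 20.6, 18.9 and 18.4 CPM in the WT livers and at 22.96, 34.8 and 23.9 CPM in the Hom livers. All Hom livers were above the WT livers, with a log2 fold change of 0.50 (SE 0.17) that just missed the threshold (adjusted p = 0.0519). It was 0.61 without Hom replicate 1 (adjusted p = 0.0362) and 0.28 without Hom replicate 2 (adjusted p = 0.0996), and the adjusted p was 0.138 and 0.130 without WT replicate 2 and 3.

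The heavy and light chains were the most abundant of the 10 genes, and their groups overlapped. B2m was at 2112, 1972 and 2021 CPM in the WT livers and at 1458, 2090 and 1793 CPM in the Hom livers. The groups overlapped through Hom replicate 2, and the log2 fold change was −0.19 (95% interval −0.60 to 0.21, adjusted p = 0.394). H2-K1 was at 1245, 1043 and 1047 CPM in the WT livers and at 801, 1142 and 913 CPM in the Hom livers. Again Hom replicate 2 lay within the WT range, with a log2 fold change of −0.22 (95% interval −0.63 to 0.18, adjusted p = 0.330). H2-D1 was at 729, 518 and 501 CPM in the WT livers and at 622, 792 and 644 CPM in the Hom livers. Here WT replicate 1 lay among the Hom livers, and the log2 fold change was 0.24 (95% interval −0.21 to 0.68, adjusted p = 0.343). The intervals leave room for a decrease as well as an increase in each of the 3 genes, so no absence of change is shown.

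Per length, in the deposited TPM (transcripts scaled to a common total), the order of the levels was the same in both groups at its upper end. B2m came first with 3638 ± 542 TPM (SD, n = 3) in WT livers and 4919 ± 1194 TPM (SD, n = 3) in Hom livers. H2-K1 followed with 1004 ± 223 TPM in WT and 1319 ± 323 TPM in Hom livers, then H2-D1 with 507 ± 172 and 906 ± 178 TPM. Tapbp was next with 41.6 ± 9.03 and 103 ± 28.7 TPM. Psmb8 and Psmb10 were neighbours that differed by less than their spread, at 26.3 ± 6.05 and 26.4 ± 5.88 TPM in WT livers and at 69.7 ± 22.3 and 66.4 ± 14.6 TPM in Hom livers. Psmb9 (17.1 ± 1.72 TPM in WT), Tap2 (13.01 ± 0.943 TPM) and Tap1 (9.29 ± 0.918 TPM) came below them, and Nlrc5 was lowest with 3.93 ± 0.755 TPM in WT and 8.52 ± 2.66 TPM in Hom livers. TPM values are shares of a library and rose in Hom livers for most genes, so the differences between groups are taken from the TMM-scaled fit.

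**Figure D2:**
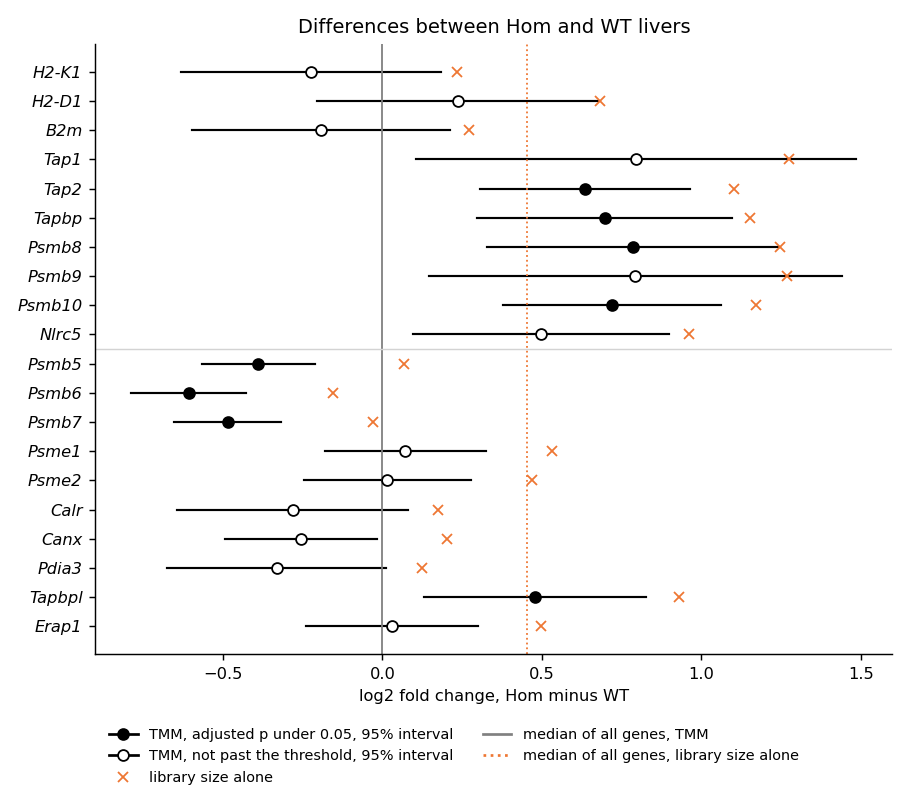
Log2 fold change of Hom over WT livers (horizontal axis) for the 10 genes and, under the grey line, for partner genes, with the 95% interval of the TMM-scaled edgeR fit, filled where the adjusted p was under 0.05; crosses give the same difference when libraries are scaled by size alone. The 3 constitutive subunits Psmb5, Psmb6 and Psmb7 lie left of the median of all genes, −0.0018 or 0.45 by the scaling, and the inducible ones right of it under both.

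The scaling sets where 0 lies. With library size alone all genes tested had a median of 0.45 on the log2 scale, against −0.0018 with TMM. Under that scaling H2-K1 and B2m turned to 0.23 and 0.27, neither past the threshold (adjusted p = 0.382 and 0.293), and the other 8 genes were all higher, where 47.6% of all genes tested were higher and 4.65% lower. Relative to the median of all genes the values hardly moved: H2-K1 was at −0.22 under both scalings, B2m at −0.19 and −0.18, and Psmb8 at 0.79 under both.

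A ratio of 2 genes within a liver does not depend on that scaling. The ratio of Psmb8 to its constitutive counterpart Psmb5, in TPM, was 0.260, 0.240 and 0.183 in the WT livers and 0.420, 0.658 and 0.456 in the Hom livers, a 2.22-fold higher ratio. That of Psmb9 to Psmb6 was 0.0982, 0.113 and 0.0946 in the WT livers and 0.168, 0.403 and 0.247 in the Hom livers, 2.52-fold higher. That of Psmb10 to Psmb7 was 0.190, 0.148 and 0.152 in the WT livers and 0.362, 0.452 and 0.318 in the Hom livers, 2.30-fold higher. In all 3 pairs every Hom liver lay above every WT liver (p = 0.1 by an exact permutation test, two-sided, which is the least that 3 against 3 livers can give, and 0.15 adjusted over 6 ratios).

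Both terms of these ratios differed between the groups with TMM scaling, although Psmb9 did not pass in the edgeR test (adjusted p = 0.0538). Psmb5, Psmb6 and Psmb7 were each lower in the Hom livers, with log2 fold changes of −0.39 (SE 0.075, adjusted p = 0.00723), −0.61 (SE 0.076, adjusted p = 0.00153) and −0.49 (SE 0.071, adjusted p = 0.00269). Psmb6, for instance, was at 105, 96.7 and 107 CPM in the WT livers and at 70.0, 65.4 and 67.3 CPM in the Hom livers. With library size alone the decreases were smaller or gone, at 0.066 for Psmb5, −0.16 for Psmb6 and −0.030 for Psmb7, none past the threshold. Relative to the median of all genes the 3 genes were at −0.39, −0.61 and −0.48 under both scalings. Even in the Hom livers the inducible transcript stayed below its constitutive counterpart, since no ratio reached 1.

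For the class I molecule the ratio of H2-K1 to B2m was 0.296, 0.266 and 0.260 in the WT livers and 0.276, 0.274 and 0.256 in the Hom livers. These overlapped, with a log2 difference of −0.028 (exact permutation test, p = 0.8; adjusted p = 0.8). The ratio of H2-D1 to B2m was 0.165, 0.126 and 0.119 in the WT livers and 0.205, 0.182 and 0.172 in the Hom livers, 1.37-fold higher without overlap (exact permutation test, p = 0.1; adjusted p = 0.15). Some sequence of H2-D1 is shared: 14.3% of the runs of 50 bases in its longest GENCODE M21 coding transcript occur in transcripts of other genes, first H2-Q1, against 8.79% for H2-K1 and 0% for B2m. For runs of 100 bases the shares were 4.64% for H2-D1 and 0% for H2-K1, and the read length is not given in the sources used here. The estimated counts of H2-K1, H2-D1, Tap1, Tap2 and Tapbp were not whole numbers in any of the 6 livers, as happens where RSEM divides reads between genes, whereas those of B2m, the 3 immunoproteasome subunits and Nlrc5 were whole in all 6. The ratio of Tap1 to Tap2 was 0.732, 0.673 and 0.736 in the WT livers and 0.581, 0.976 and 0.758 in the Hom livers and overlapped (exact permutation test, p = 0.7; adjusted p = 0.8).

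**Figure D3:**
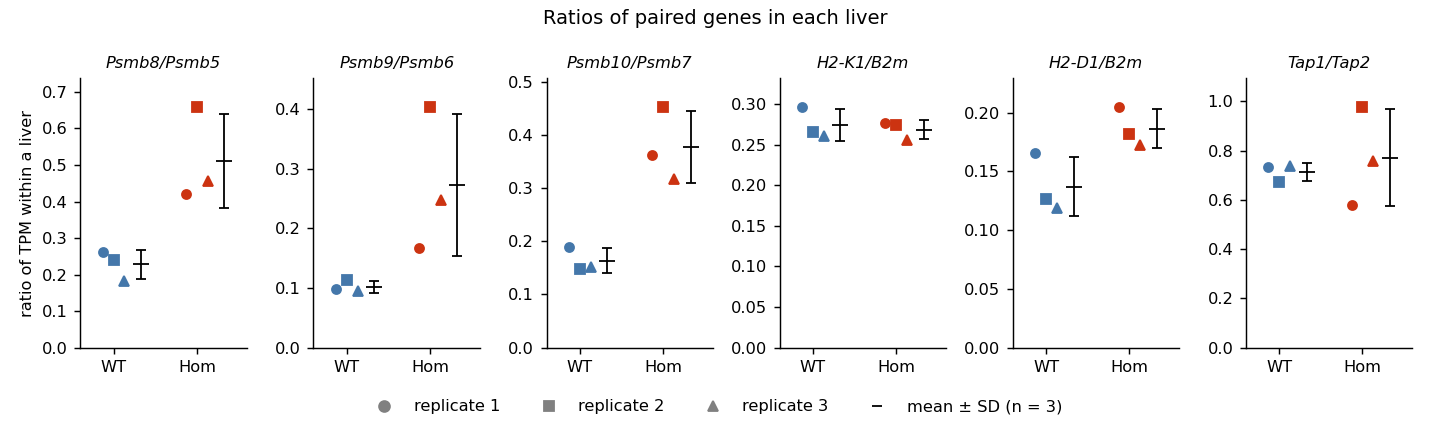
Ratio of TPM within each liver (vertical axis, from 0) for the 3 pairs of inducible over constitutive catalytic subunits, for both heavy chains over B2m and for Tap1 over Tap2, in 3 WT (blue) and 3 Hom livers (red) with the mean ± SD in black. The first 3 ratios and that of H2-D1 to B2m lie higher in every Hom liver, and those of H2-K1 to B2m and Tap1 to Tap2 overlap.

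The rest of the proteasome was lower in the Hom livers with TMM scaling, but not with library size alone. Relative to the median of all genes, the median of the 20S core was at −0.43 under both scalings. That of the 19S regulatory particle was at −0.44 with TMM and −0.43 with library size alone. Of 14 constitutive subunits of the 20S core, 12 were lower and 0 higher, around a median of −0.43, whereas with library size alone 0 were lower and the median was 0.025. Psmb3 (−0.54), Psma5 (−0.50) and Psma6 (−0.49) are examples. Over all genes tested 21.5% were higher and 20.1% lower, and 47.6% and 4.65% with library size alone. Of 20 genes of the 19S regulatory particle, which unfolds ubiquitinated proteins, 17 were lower and 2 higher (median −0.44; with library size alone 0 and 3, median 0.022). Among the lower were the ubiquitin receptor Adrm1 (−0.74, adjusted p = 0.00144), Psmd9 (−0.66, adjusted p = 0.00298) and Psmd3 (−0.64, adjusted p = 9.72e-04). Psme1 and Psme2, the chains of the activator PA28 that interferon gamma also induces, were at log2 fold changes of 0.072 and 0.015 and did not pass (adjusted p = 0.613 and 0.921). Of the 9 genes of proteasome activators and assembly, 4 were lower and 0 higher (with library size alone 0 and 3), namely Psmg2 (−0.43), Psmg3 (−0.46), Psme4 (−0.30) and the assembly factor Pomp (−0.28), the last named after its values were seen and at 0.19 with library size alone. Psmg2, Psmg3 and Psme4 lost their call when any of 5, 6 and 4 livers was left out.

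Of 6 further genes of peptide trimming and loading in the endoplasmic reticulum, 1 was higher and 1 lower (median −0.27). With library size alone 2 were higher and 0 lower. All genes tested gave 21.5% higher and 20.1% lower, or 47.6% and 4.65% with library size alone. The counts here lie near or below those shares. Tapbpl, the tapasin relative TAPBPR that edits peptides outside the loading complex, was at 19.6, 15.3 and 20.3 CPM in the WT livers and at 25.9, 29.0 and 22.03 CPM in the Hom livers (log2 fold change 0.48, SE 0.15, adjusted p = 0.0374). Hspa5, the chaperone BiP, fell by 0.95 on the log2 scale (SE 0.30, adjusted p = 0.0404). Both calls were lost when any of 4 livers was left out, with adjusted p of up to 0.122 and 0.128. The chaperones Calr (−0.28, adjusted p = 0.179) and Canx (−0.25, adjusted p = 0.0819), the oxidoreductase Pdia3 (−0.33, adjusted p = 0.106) and the trimming peptidase Erap1 (0.029, adjusted p = 0.857) did not pass.

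Other class I heavy chain genes were called in both directions. Of all genes tested 21.5% were higher and 20.1% lower, or 47.6% and 4.65% with library size alone. The counts here lie near those shares. Of 22 listed, 17 were tested, of which 5 were higher and 3 lower (median 0.31; with library size alone 9 and 0). H2-Q1 was at 15.7, 6.61 and 8.05 CPM in the WT livers and at 75.7, 106 and 78.3 CPM in the Hom livers, a log2 fold change of 3.09 (SE 0.33, adjusted p = 9.38e-04). H2-D1 shares most with H2-Q1, its neighbour on chromosome 17. In H2-Q1 itself 22.9% of the runs of 50 bases and 13.1% of those of 100 bases occur in other genes. H2-Q2 was at 1.95, 1.41 and 1.11 CPM in the WT livers and at 3.64, 5.24 and 4.01 CPM in the Hom livers (log2 fold change 1.52, SE 0.28, adjusted p = 0.00617). H2-M2, a heavy chain gene of the M region, had 4, 0 and 4 reads in the WT livers and 46, 113 and 69 reads in the Hom livers (adjusted p = 0.00324). In the other direction H2-Q10, a secreted class I molecule made by hepatocytes and named after its values were seen, was at 1608, 1797 and 1773 CPM in the WT livers and at 1191, 1081 and 1075 CPM in the Hom livers (log2 fold change −0.63, SE 0.13, adjusted p = 0.00960). With library size alone H2-Q10 did not pass (−0.17, adjusted p = 0.261).

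**Figure D4:**
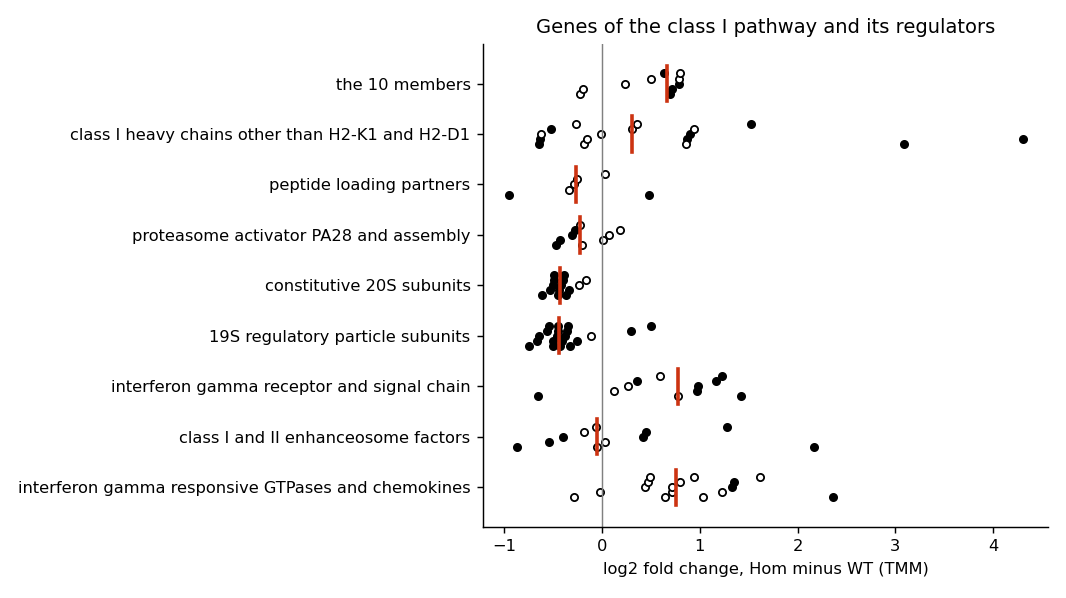
Log2 fold change of Hom over WT livers (horizontal axis, TMM scaling) of each tested gene in the 10 genes and in 8 lists of the class I pathway and its regulators; filled points had an adjusted p under 0.05 and red bars are list medians. All 14 constitutive 20S subunits and most of the 19S genes lie left of 0, with medians of −0.43 and −0.44, and the 10 genes and both interferon gamma lists have medians of 0.67, 0.78 and 0.76.

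Regulators of the pathway were read from lists of interferon gamma signalling and of the promoter complex. Ifng itself had 3, 1 and 0 reads in the WT livers and 1, 6 and 3 in the Hom livers, too few to test, so a difference was not detectable at this depth. Of 11 tested genes of its receptor and signal chain, 6 were higher and 1 lower (median 0.78). With library size alone 10 were higher and 0 lower. The shares of all genes tested were 21.5% and 20.1%, and 47.6% and 4.65% with library size alone. Irf1, an interferon-induced factor that acts on Tap1, Psmb9 and B2m, was at 25.2, 18.3 and 19.3 CPM in the WT livers and at 33.4, 45.4 and 44.7 CPM in the Hom livers (log2 fold change 0.97, SE 0.17, adjusted p = 0.00484). The receptor chain Ifngr1 (1.17, adjusted p = 0.00242), the myeloid factor Irf8 (1.23, adjusted p = 0.0157) and the feedback inhibitor Socs3 (1.42, adjusted p = 0.00303) were higher. Irf8 did not pass without WT replicate 2 or Hom replicate 2.

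Of 16 tested interferon gamma responsive GTPases and chemokines 3 were higher and 0 lower (median 0.76; with library size alone 10 and 0). With TMM that is a share below the 21.5% of all genes tested that were higher. The share was above that of all genes with library size alone (47.6%) and with DESeq2 (7 of 16 against 3014 of 17922). The 3 higher with TMM were Cxcl10 (1.33, adjusted p = 0.00286), Gbp9 (1.35, adjusted p = 0.0152) and Tgtp1 (2.36, adjusted p = 0.0318). Gbp9 did not pass without WT replicate 2, nor Tgtp1 without any 1 of the WT livers or Hom replicate 2. Tgtp1 cannot be told from its near copy Tgtp2 in 91.4% of its runs of 50 bases. The summed level of this list was 416 to 513 CPM in the WT livers and 397, 997 and 551 CPM in Hom replicates 1, 2 and 3, so that Hom replicate 1 lay below the WT livers.

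Of 11 genes of the promoter complex that class I and class II genes share, 4 were higher and 3 lower (median −0.050). With library size alone 7 were higher and 1 lower. The shares of all genes tested were 21.5% and 20.1%, and 47.6% and 4.65% with library size alone. NLRC5 and CIITA, its class II relative, bind no DNA themselves and join a complex of RFX, CREB and NF-Y proteins. Ciita was at 3.69, 1.67 and 1.54 CPM in the WT livers and at 6.95, 12.6 and 11.7 CPM in the Hom livers (log2 fold change 2.17, SE 0.39, adjusted p = 0.00570). The RFX subunits parted: Rfx5 was higher (1.28, SE 0.14, adjusted p = 0.00112), while Rfxank (−0.87, SE 0.10, adjusted p = 0.00126) and Rfxap (−0.54, SE 0.16, adjusted p = 0.0303) were lower. Rfxap lost its call when any of 5 livers was left out. Nfkb1, Nfya and Nfyb, named after their values were seen, had log2 fold changes of 0.42, 0.45 and −0.40 and passed, but with library size alone Nfyb was at 0.060 and did not.

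The livers of a group were not alike. Hom replicate 2 was the highest of the Hom livers in 10 of the 10 genes, against 31.4% of all genes tested, and the highest of all 6 livers in 8 of 10, against 16.1%. Hom replicate 1 was the lowest of the Hom livers in 8 of 10, against 39.4%. Hom replicate 1 also had 0 CPM of the Y-linked genes Ddx3y and Kdm5d, which were at 38.7 to 49.6 and 13.6 to 17.8 CPM in the other livers. Whether its low values within the Hom group go with a difference of sex was not tested. Without Hom replicate 1, 7 of the 10 genes were higher. Without WT replicate 2 or WT replicate 3 the number was 2, namely Tap2 and Psmb10.

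Some markers of leukocytes moved with these genes, and their counts are to be read beside the 21.5% of all genes tested that were higher and the 20.1% that were lower. With library size alone these shares were 47.6% and 4.65%. Ptprc, the pan-leukocyte antigen CD45, was at 14.7, 4.68 and 4.98 CPM in the WT livers and at 17.1, 31.0 and 26.9 CPM in the Hom livers (log2 fold change 1.62, SE 0.46, adjusted p = 0.0299), with Hom replicate 2 highest and Hom replicate 1 lowest of the Hom livers. It did not pass when WT replicate 2 or 3 or Hom replicate 2 or 3 was left out (adjusted p = 0.0790 to 0.0914). Of 13 tested T and NK cell markers 6 were higher and 0 lower (with library size alone 8 and 0), and their summed level was 9.75 to 15.4 CPM in the WT livers and 16.1, 34.5 and 31.2 CPM in the Hom livers. Dendritic cell and class II markers (5 of 10 higher, 0 lower; with library size alone 7 and 0) summed to 185 to 355 CPM in the WT livers and 723, 1472 and 1201 CPM in the Hom livers. Of macrophage and Kupffer cell markers 3 of 15 were higher with TMM, a share below that of all genes, and 2 lower. The share was above that of all genes with library size alone (8 higher, 1 lower) and with DESeq2 (6 higher, against 3014 of 17922). These markers summed to 892, 395 and 368 CPM in the WT livers and to 617 to 867 CPM in the Hom livers, so that WT replicate 1 stood apart. Of the WT livers it was highest in H2-K1, H2-D1, B2m, Tapbp, Psmb8, Psmb10 and Nlrc5 and not in Tap1, Tap2 and Psmb9. B cell markers (1 of 3 tested higher under both scalings) summed to 6.57 to 33.1 and 39.7 to 86.7 CPM.

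Markers of other liver cells are given against the same shares of all genes. Hepatocyte markers (0 of 15 higher, 10 lower; with library size alone 1 and 6) summed to 176344 to 207592 CPM in the WT livers and to 81265 to 112914 CPM in the Hom livers. Cholangiocyte markers (9 of 10 higher, 0 lower under both scalings) summed to 72.4 to 102 and 628 to 880 CPM, and stellate cell and fibroblast markers (6 of 10 higher, 1 lower; with library size alone 8 and 1) to 338 to 398 and 706 to 774 CPM. Endothelial markers (0 of 10 higher, 4 lower; with library size alone 3 and 2, so that their direction turned) summed to 266 to 360 and 220 to 224 CPM. No listed marker was at 0 in every liver. The part of these cells in the levels of the class I genes was not tested.

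The genes whose profile over the 6 livers was most like the mean profile of the 10 were sought among 12855 others with a mean of at least 1 CPM, by the root mean square difference of centred log2 CPM. The nearest were Acat2 (0.076), Fanca (0.086), Nmi (0.087), Eif2ak2 (0.090) and H2-T22 (0.090). Among the 10 genes themselves the difference ran from 0.024 for Nlrc5, the gene closest to the mean profile, to 0.35 for H2-K1. H2-T22 was at 105, 96.9 and 100.3 CPM in the WT livers and at 108, 154 and 111 CPM in the Hom livers. Its likeness, as that of the others, covers 6 livers of 2 groups only.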

How the data were processed

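RNA of 6 livers (3 WT, 3 Hom) was extracted with Trizol and sequenced on DNBSEQ by BGI. The authors deposited estimated counts per gene (not scaled between livers), TPM values (per length, with a common total in each liver) and FPKM values, which were not used. The submitters' processing notes name HISAT2 2.0.4, Bowtie2 2.2.5, RSEM 1.2.12 and mm9; strandedness and annotation are not given in the sources used here. The 6 deposited mean columns carry crossed group names and were not used. Totals were 19349418 to 19730236 estimated counts per liver, so depth limits mainly genes with few reads; TMM factors were 0.806 to 0.924 (WT) and 1.09 to 1.23 (Hom). Nek7 was at 62.9 to 69.1 CPM in WT and 14.5 to 18.1 CPM in Hom livers.

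Counts were rounded and fitted in R 4.3.3 with edgeR 4.0.16 (filterByExpr, TMM, quasi-likelihood F test, Benjamini-Hochberg), after the procedure had been tested on simulated data; SEs and 95% intervals come from the F statistic. Ratios used TPM and an exact two-sided permutation test. Each library is 1 mouse per the methods of the study, and replicates of a group were not 1 library deposited again (the smallest ratio of chi-square to its degrees of freedom was 22.3). The genes and lists were chosen with earlier results of these data known. The genes named were the 10, their constitutive partners, fixed regulators, up to 3 genes per pathway list (past the threshold, no overlap, largest change), 5 of like profile, and those marked as named after their values were seen. Alternatives were DESeq2 1.42.0, limma 3.58.1 on log2(TPM + 1), other scalings and filters, a replicate block and each liver left out. Promoter windows are from RefSeq (GRCm38.p6). One regulator covered by the rule for named genes is not reported here.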

Additional observations from a re-analysis of the deposited data

How the results depend on the processing

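Across 13 other settings Tap2 and Psmb10 passed in 13, Tapbp and Psmb8 in 11, Psmb9 and Nlrc5 in 6, Tap1 in 5, H2-D1 in 2, and H2-K1 and B2m in 0. The number of the 10 genes that were higher was 8 with library size alone and with limma on log2(TPM + 1), 7 with upper-quartile factors and with DESeq2, and 2 to 7 with 1 liver left out. It was 6 with at least 10 counts in every liver, and 0 were lower in each setting. Their median log2 fold change was 1.13 with library size alone, 1.21 with limma on TPM and 0.41 to 0.76 with 1 liver left out; relative to the median of all genes it was 0.67 in the fit with TMM and with library size alone and 0.71 with limma. Of all genes, 6574 were higher and 642 lower with library size alone, 8368 and 433 (60.6% and 3.14%) with limma on TPM, and 1986 to 3057 higher and 1767 to 2750 lower with 1 liver left out.

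Among the 10 genes and those named by rule, the log2 fold change changed sign with library size alone for H2-K1 (0.23), B2m (0.27), Psmb5 (0.066), Calr (0.17), Canx (0.20), Pdia3 (0.12), Psmg2 (0.038) and Psme4 (0.15). It did so with limma on TPM for H2-K1 (0.39), B2m (0.42), Psmb5 (0.23), Psmb6 (0.014), Psmb7 (0.13), Calr (0.35), Canx (0.36), Pdia3 (0.30), Psmg3 (0.15), Psmg2 (0.20), Psme4 (0.31), Psmb3 (0.087), Psma5 (0.12), Psma6 (0.13) and Rfxap (0.081). Of the genes named after their values were seen, Pomp (0.19), Nfyb (0.060), H2-T23 (0.46) and Hfe (0.28) changed sign with library size alone. They did so with limma on TPM as well, as did Cd1d1 (0.19). Of 34 genes called and named by rule, 12 lost their call when 1 liver was left out, 2 of them among the 10 genes (Psmb8 and Tapbp). Library size alone and limma on TPM move the median of all genes, by 0.45 and 0.50. With 1 liver left out, Psme1 ranged from −0.032 to 0.15, Psme2 from −0.078 to 0.11 and Erap1 from −0.063 to 0.098, and the log2 difference of the ratio from −0.064 to 0.029 for H2-K1 to B2m and from −0.10 to 0.27 for Tap1 to Tap2. The 3 subunit ratios ranged from 0.96 to 1.63 and kept their sign; with 2 livers against 3 no p under 0.2 is possible. With the replicate number as a block 4 of the 10 genes were higher, as without it; same-numbered livers are different mice and did not deviate together (correlations of −0.109 to −0.0494).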

Other observations

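Further class I relatives, named after their values were seen, moved in both directions with TMM scaling. Fcgrt, the neonatal Fc receptor that pairs with B2m to recycle IgG and albumin, fell by 0.65 on the log2 scale (adjusted p = 0.00157), from 147 to 93.9 CPM. Cd1d1, which presents lipids to NKT cells, fell by 0.52 (adjusted p = 0.0107), from 183 to 128 CPM. Both decreases rest on that scaling: with library size alone Fcgrt was at −0.19 (adjusted p = 0.232) and Cd1d1 at −0.057 (adjusted p = 0.734). Mr1, which presents vitamin B2 metabolites to MAIT cells, was higher (0.90, adjusted p = 0.00566, 4.02 CPM in WT and 7.53 CPM in Hom livers), as was H2-Q4 (0.87, adjusted p = 0.0321, 39.4 and 72.0 CPM), and both stayed higher with library size alone (1.35 and 1.33). H2-T23, the Qa-1 molecule, was at 163 CPM in WT and 162 CPM in Hom livers (log2 fold change −0.0054, adjusted p = 0.978). With library size alone H2-T23 was at 0.46 (adjusted p = 0.0627), and with limma on TPM it passed at 0.60 (adjusted p = 0.0280). Hfe, another partner of B2m with a part in iron sensing, did not pass with TMM either (−0.18, adjusted p = 0.186). With library size alone Hfe turned to 0.28 (adjusted p = 0.0304), and with limma on TPM to 0.41 (adjusted p = 0.00932).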
